A study of Mus musculus with 9 samples.

Results

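The genes described here are 10 elastic fibre and lysyl oxidase genes chosen by name, *Eln*, *Fbn1*, *Fbn2*, *Fbln1*, *Fbln2*, *Fbln5*, *Efemp2*, *Lox*, *Loxl1* and *Loxl2*. Of these, 7 were measured by a probe set with exactly 1 gene symbol, out of 19938 genes measured in this way. The only probe set that carried the symbol *Loxl2* also carried another gene, and *Fbn1* and *Efemp2* were not analysed here. Each of these 7 members had 1 probe set. They were compared in mouse induced pluripotent stem (iPS) cells derived from embryonic fibroblasts, in the embryonic stem cell line R1, and in the embryonic fibroblasts (MEF) at a passage below 3 from which the iPS cells came. There were 3 Affymetrix whole-transcript arrays of total RNA per group, which the design text describes as biological repeats. Genotype, strain, reprogramming vector, feeder layer and the number of iPS lines are not given in the labels, nor is the origin of the repeats. The p-values therefore cover only the spread between these cultures, which may be technical.

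Elastic fibres are the stretchable cables of the extracellular matrix that let arteries, lung and skin recoil. Their core is elastin, laid on a scaffold of fibrillin microfibrils, and fibulins bring elastin, microfibrils and cross-linking enzymes together. Lysyl oxidases, which need copper, oxidise lysines of elastin and collagen so that the chains can be cross-linked. Fibroblasts and smooth muscle cells are main sources of these proteins.

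The array medians were 78.2 to 83.3, and precision is limited by the 3 arrays per group. Of the markers of the labelled cells, 8 of 8 pluripotent cell markers were called higher in both iPS and R1 than in MEF, and 9 of 10 fibroblast markers were called lower. The exception was decorin (*Dcn*), at 110 to 173% of the MEF mean on the iPS and R1 arrays. Of the 3 R1 arrays, replicate 2 stood apart in fibroblast and smooth muscle genes. Its summed signal of the 10 fibroblast markers was 3677, against 2726 and 2711 on R1 replicates 1 and 3. Its summed signal of 6 smooth muscle markers was 1817, against 943 and 1068. Where leaving out this array changed a call or moved a member's difference of R1 cells from MEF by 0.1 or more, the value without it is given as well.

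Promoters were at hand for 3 of the 7 measured genes, all fibulins, and all 3 are shown. They are in the order of how much their signals fell (*Fbln5* most, *Fbln1* least). No link between the sequences and these falls was tested. The sequences are from RefSeq on build GRCm38.p6 and run 5′ to 3′ on the gene's strand, from 250 bases before to 50 bases after the start furthest upstream. Capitals mark GC boxes, the letters GGGCGG on either strand, which factors of the Sp family can bind.
*Fbln5*, chr12:101819070-101819369, minus strand: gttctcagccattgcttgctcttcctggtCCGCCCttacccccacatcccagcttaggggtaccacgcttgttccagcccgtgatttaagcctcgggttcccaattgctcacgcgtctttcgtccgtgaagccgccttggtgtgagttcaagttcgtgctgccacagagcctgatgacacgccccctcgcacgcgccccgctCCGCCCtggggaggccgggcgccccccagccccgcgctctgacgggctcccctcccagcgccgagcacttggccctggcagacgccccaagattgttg
*Fbln2*, chr6:91212514-91212813, plus strand: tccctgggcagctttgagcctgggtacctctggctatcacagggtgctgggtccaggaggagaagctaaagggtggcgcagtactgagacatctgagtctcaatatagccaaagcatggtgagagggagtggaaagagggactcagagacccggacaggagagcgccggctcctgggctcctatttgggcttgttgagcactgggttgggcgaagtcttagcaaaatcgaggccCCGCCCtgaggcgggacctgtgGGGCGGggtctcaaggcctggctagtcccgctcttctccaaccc
*Fbln1*, chr15:85205699-85205998, plus strand: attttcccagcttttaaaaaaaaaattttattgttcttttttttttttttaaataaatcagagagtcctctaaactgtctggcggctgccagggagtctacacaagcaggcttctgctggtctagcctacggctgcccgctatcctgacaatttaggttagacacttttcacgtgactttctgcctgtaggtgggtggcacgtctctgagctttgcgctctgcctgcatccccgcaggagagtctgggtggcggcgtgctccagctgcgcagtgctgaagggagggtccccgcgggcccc

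The *Fbln5* and *Fbln2* windows each held 2 GC boxes and that of *Fbln1* held 0, while 35.7% of 32841 promoters of the same length held at least 1. Their G and C content was 65.7% for *Fbln5*, 60.3% for *Fbln2* and 51.7% for *Fbln1*. The *Fbln5* window also held 1 CCAAT box (letters CCAAT, either strand), found in 37.4% of promoters. The *Fbln1* window held 1 E-box (letters CACGTG), found in 7.15% of promoters. The TATA box (TATAAA, in 13.6% of promoters), the AP-1 site (TGANTCA, in 7.81%), the TEAD site (GGAATG, in 14.7%) and the Smad palindrome (GTCTAGAC, in 0.213%) were searched on both strands and matched none of the 3 windows. *Fbln1* and *Fbln5* each have a further start that was not examined, and a match is a description of the letters, not of a bound site.

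Setting iPS cells against MEF shows what distinguishes them from the fibroblasts they were made from, and R1 cells give the same comparison for a control line. Both comparisons use the same MEF arrays. In iPS and in R1 cells, elastin, fibrillin-2, fibulin-2, fibulin-5 and the lysyl oxidases *Lox* and *Loxl1* all fell, and only fibulin-1 stayed within 1 log2 unit of MEF among the 7. A call required a difference of at least 1 in either direction and an adjusted p below 0.05, where differences are of log2(signal + 16) and p-values come from limma, adjusted by Benjamini-Hochberg over all genes. In iPS against MEF, 6 of 7 members were called lower and 0 higher, where 7.57% of all genes were called lower, 5.08% higher and 12.7% in either direction. In R1 against MEF, 6 of 7 were called lower and 0 higher, against 7.93% of all genes lower, 5.56% higher and 13.5% in either direction. The arrays of all 7 members were fully below those of MEF in both comparisons, as they were for 24.9% of all genes in iPS and 25.2% in R1 cells. The median log2 difference of the 7 was -3.33 in iPS and -3.65 in R1 cells, and that of all genes was 0.02 in both. In bulk RNA, fewer cells of a type and less RNA per cell cannot be told apart.

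**Figure D1:**
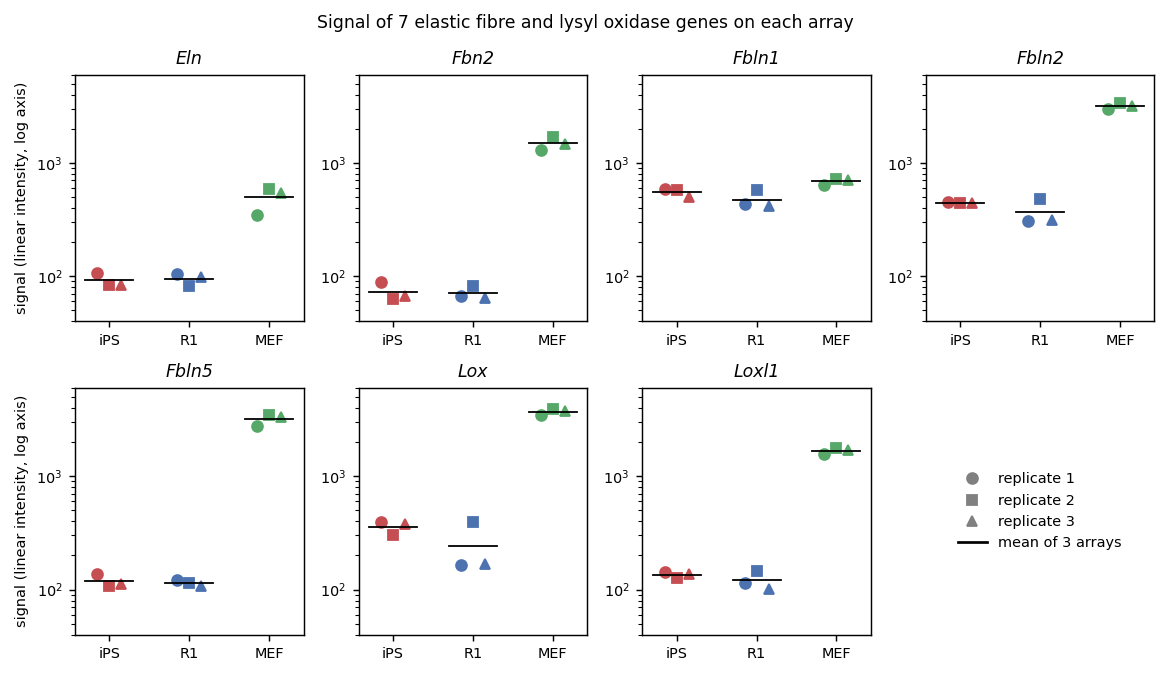
Signal (linear intensity, log axis) of the 7 measured genes on each of 3 iPS, 3 R1 and 3 MEF arrays, 1 panel per gene, with point shape giving the replicate and a line the mean of 3 arrays. All MEF arrays lie above all iPS and R1 arrays in every panel, by little for Fbln1, and R1 replicate 2 lies above the other R1 arrays for Lox and Fbln2.

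*Eln*, which encodes the soluble precursor of elastin, had signals of 107, 84.4 and 84.4 on iPS arrays and 104, 81.6 and 97.7 on R1 arrays, against 349.7, 592 and 545 on MEF arrays. The MEF arrays spread most for this gene, with a log2 SD of 0.39, against 0.17 in iPS and 0.15 in R1 cells. *Eln* fell by 2.22 ± 0.18 (SE) in iPS cells (limma adjusted p = 3.28e-06) and fell by 2.18 ± 0.18 in R1 cells (limma adjusted p = 3.38e-06). Its iPS and R1 means lay at the 47.6th and 48.5th percentile of all genes. No detection calls were used, so such a signal is not told apart from background and the differences may be understated.

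*Fbn2* encodes fibrillin-2, the fibrillin best known from embryonic microfibrils. Its signals were 89.3, 62.7 and 66.7 on iPS arrays and 66.7, 81.6 and 64.9 on R1 arrays, against 1305, 1675 and 1468 on MEF arrays. iPS and R1 arrays overlapped each other far below MEF, with means at 4.92% of the MEF mean in iPS and 4.79% in R1 cells. *Fbn2* fell by 4.08 ± 0.13 in iPS cells (limma adjusted p = 8.96e-09) and fell by 4.10 ± 0.13 in R1 cells (limma adjusted p = 6.95e-09). As for *Eln*, the iPS and R1 signals, at the 41.5th and 40.7th percentile of all genes, were not told apart from background, so these shares may be too high and the differences understated.

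The 3 fibulins changed to very different degrees. *Fbln5*, whose protein binds elastin and recruits lysyl oxidase-like enzymes and is needed for elastic fibres in mice, had signals of 136, 108 and 112 on iPS arrays and 121, 114 and 107 on R1 arrays, against 2759, 3468 and 3350.1 on MEF arrays. Its MEF mean of 3193 ± 380 (SD, n = 3) was 26.8 times the iPS mean, which stood at 3.73% of it, and the R1 mean stood at 3.57%. As for *Eln* and *Fbn2*, the iPS and R1 signals were not told apart from background, with means at the 54.2nd and 53.1st percentile. These shares may thus be too high and the differences understated. *Fbln5* fell by 4.57 ± 0.10 in iPS cells (limma adjusted p = 1.72e-09), the lowest difference measured among the 19938 genes, and fell by 4.62 ± 0.10 in R1 cells (limma adjusted p = 1.16e-09), the second lowest.

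*Fbln2* encodes a larger fibulin of vessel walls, heart valves and basement membranes. Its signals were 449, 443 and 446 on iPS arrays and 304, 481 and 313 on R1 arrays, against 2978, 3373 and 3148 on MEF arrays. The iPS arrays lay within 7 signal units of each other, while R1 replicate 2 was above every iPS array and R1 replicates 1 and 3 below them all. *Fbln2* fell by 2.78 ± 0.14 in iPS cells (limma adjusted p = 1.71e-07) and fell by 3.09 ± 0.14 in R1 cells (limma adjusted p = 7.52e-08). Without R1 replicate 2 the R1 difference was -3.29.

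*Fbln1* encodes fibulin-1, which is found in basement membranes as well as in elastic fibres. It had 588, 572 and 498 on iPS arrays and 437, 572 and 413 on R1 arrays, against 635, 714 and 709 on MEF arrays. The groups did not overlap with MEF, but the mean was still 80.6% of that of MEF in iPS and 69.1% in R1 cells. Its log2 difference was -0.31 ± 0.12 in iPS cells (limma adjusted p = 0.0548) and -0.53 ± 0.12 in R1 cells (limma adjusted p = 0.00325), and neither was called. The iPS difference missed the adjusted p as well as the size of 1, while the R1 difference missed only the size, also without R1 replicate 2 (-0.67). The 95% intervals of its differences from MEF (-0.57 to -0.04 in iPS, -0.79 to -0.27 in R1 cells) did not overlap those of any other measured member.

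**Figure D2:**
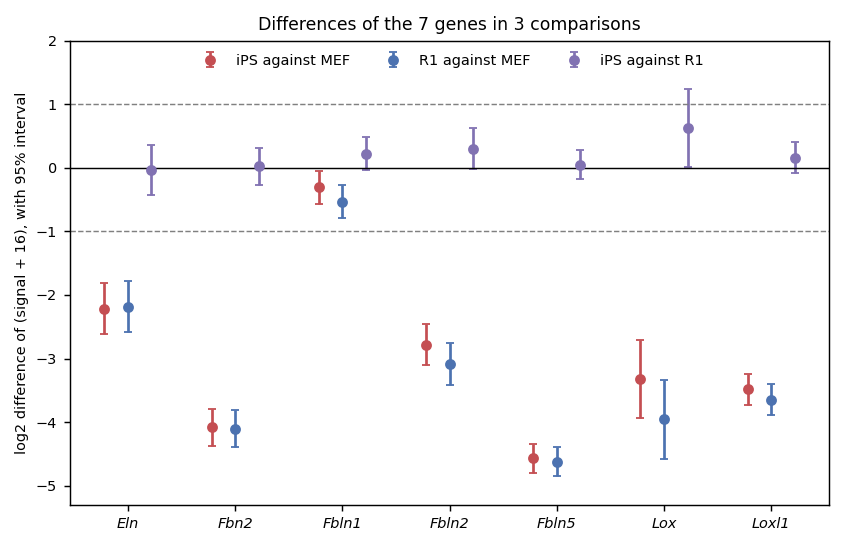
Log2 differences of (signal + 16) of the 7 genes, with 95% intervals from the limma fit, for iPS and R1 each against MEF and for iPS against R1; dashed lines mark differences of 1 and -1. All differences from MEF lie below -2 except those of Fbln1 (-0.31 and -0.53), and all iPS against R1 differences lie between -0.03 and 0.63.

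*Lox*, the founding lysyl oxidase, had signals of 391, 300.2 and 377 on iPS arrays and 163, 396 and 169 on R1 arrays, against 3468, 3875 and 3743 on MEF arrays. R1 replicate 2 was above every iPS array and at more than the other R1 arrays together, and the log2 SD of the R1 arrays was 0.68, against 0.20 in iPS cells and 0.08 in MEF. *Lox* fell by 3.33 ± 0.27 in iPS cells (limma adjusted p = 4.10e-06) and fell by 3.96 ± 0.27 in R1 cells (limma adjusted p = 1.11e-06). Without R1 replicate 2 the R1 difference was -4.35.

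*Loxl1* encodes the lysyl oxidase-like enzyme that mice need to renew elastic fibres. Its signals were 144, 125 and 137 on iPS arrays and 115, 145 and 102 on R1 arrays, against 1563, 1771 and 1710.3 on MEF arrays. *Loxl1* fell by 3.49 ± 0.11 in iPS cells (limma adjusted p = 8.10e-09) and fell by 3.65 ± 0.11 in R1 cells (limma adjusted p = 5.22e-09). Without R1 replicate 2 the R1 difference was -3.77. Each of the 6 iPS and R1 arrays lay between 6.06 and 8.63% of the MEF mean. As for *Fbln5*, these low signals were not told apart from background.

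When iPS cells were set against the embryonic stem cell line R1, none of the 7 members was called higher or lower (0 by limma at adjusted p under 0.05 and a difference of 1), where 0.296% of all genes were called higher, 0.166% lower and 0.461% in either direction. The iPS and R1 arrays of all 7 overlapped; of all genes, 9.84% had iPS arrays fully above and 12.1% fully below the R1 arrays. At an unadjusted p under 0.05, 1 of 7 passed, *Lox*, with a difference of 0.63 ± 0.27, a 95% interval of 0.01 to 1.25 and a limma adjusted p = 0.231; of all genes, 20.6% had an unadjusted p under 0.05. The interval was -0.02 to 0.63 for *Fbln2*, -0.04 to 0.49 for *Fbln1* and -0.08 to 0.40 for *Loxl1*. It was -0.43 to 0.37 for *Eln*, -0.27 to 0.31 for *Fbn2* and -0.18 to 0.28 for *Fbln5*. The order of the levels was thus MEF above both pluripotent groups for each of the 7, with iPS and R1 cells not distinguished beyond their spread. For *Fbln1* in iPS cells, the difference from MEF missed the adjusted p (limma adjusted p = 0.0548).

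The *Lox* result rested on 1 array. Without R1 replicate 2, *Lox* was called higher in iPS than in R1 cells (1.02, limma adjusted p = 0.00117), so that 1 of 7 members was called in place of 0. *Fbln2* (0.51, limma adjusted p = 0.00221) and *Fbln1* (0.36, limma adjusted p = 0.0388) then passed the adjusted p, with differences under 1. Replicate 2 was the highest R1 array in 5 of 7 members and in 7 of 10 fibroblast markers, and in 29.7% of all genes. In 4 of 7 members and 7 of 10 fibroblast markers, R1 replicates 1 and 3 both lay below every iPS array, which was so for 14.2% of all genes. These 4 members were *Lox*, *Loxl1*, *Fbln1* and *Fbln2*.

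The summed signals of fibroblast, smooth muscle and skeletal muscle markers were lower in both pluripotent groups than in MEF. The summed signal of the 10 fibroblast markers was 3648 to 4544 on iPS, 2711 to 3677 on R1 and 30532 to 34712 on MEF arrays. That of the 6 smooth muscle markers was 2167 to 2538 on iPS, 943 to 1817 on R1 and 19085 to 19630.4 on MEF arrays, with all 6 called lower in both pluripotent groups. Of these, *Acta2*, smooth muscle actin, was called higher in iPS than in R1 cells (1.15 ± 0.27, limma adjusted p = 0.0335), as was *Tagln* (1.17 ± 0.24, limma adjusted p = 0.0176). The other 4 of the 6 were not called, and *Des* was lower in iPS than in R1 cells (-0.29 ± 0.13). Of all genes, 0.296% were called higher in iPS than in R1 cells. Without R1 replicate 2, in an alternative chosen after seeing the data, the differences were 1.54 for *Acta2* (limma adjusted p = 0.000176) and 1.502 for *Tagln* (limma adjusted p = 0.00024). The 6 skeletal muscle markers summed to 569 to 733 on iPS, 507 to 600.1 on R1 and 5722 to 6840.0 on MEF arrays, also with all 6 called lower in both. Most of their MEF sum came from *Actc1*, which averaged 290 in iPS and 223 in R1 cells, against 4881 in MEF. No marker was at 0 on any array, and the part of fibroblasts, smooth muscle and skeletal muscle cells in the result was not tested.

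Markers of other cell types did not move one way. Of 6 measured macrophage markers, 1 was called in each pluripotent group, as higher. That gene, *Cd68*, averaged 255 in iPS and 303 in R1 cells, against 109 in MEF, out of summed signals of 393 to 417 on iPS, 441 to 467 on R1 and 247 to 286 on MEF arrays. Of 6 endothelial markers, which summed to 410 to 516 on iPS, 501 to 565 on R1 and 289 to 348 on MEF arrays, *Pecam1* was called higher (1.81 ± 0.21 in iPS, 2.07 ± 0.21 in R1 cells) and *Emcn* lower (-1.04 ± 0.06 in iPS, -1.08 ± 0.06 in R1 cells).

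The 7 primitive endoderm markers summed to 843 to 963 on iPS, 1082 to 1167 on R1 and 1748 to 1830.5 on MEF arrays. Most of the MEF sum came from *Dab2*, which averaged 125 in iPS and 195 in R1 cells, against 1109 in MEF, and was called lower in both. *Lama1* was called higher in both (1.79 ± 0.07 in iPS, 2.11 ± 0.07 in R1 cells), *Gata6* differed by -1.08 ± 0.08 in iPS (called) and by -0.69 ± 0.08 in R1 cells (not called), and the median difference of the list was 0.11 in iPS and 0.17 in R1 cells. Trophoblast markers (6 genes) summed to 1098 to 1427 on iPS, 750.0 to 806 on R1 and 662 to 725 on MEF arrays, with 2 called higher and 1 lower in each pluripotent group.

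As a share of the MEF mean, *Lox* stood at 10.6, 8.12 and 10.2% on iPS arrays and at 4.41, 10.7 and 4.57% on R1 arrays. *Col1a1*, a chain of type I collagen, stood at 13.3, 11.3 and 11.8% on iPS arrays and at 6.17, 10.1 and 6.94% on R1 arrays. Both genes thus placed R1 replicate 2 apart from the other R1 arrays and near the iPS arrays. *Col1a1* is among the 7 of 10 fibroblast markers whose highest R1 array was replicate 2. Of the others, *S100a4* was lowest on that array (15.9%, against 22.7 and 23.9%). *Pdgfra* lay between on it (16.6%, against 16.2 and 17.3%), and *Dcn* tied with R1 replicate 1 (142%). *Fbln5* stood at 4.27, 3.39 and 3.51% on iPS arrays and at 3.79, 3.56 and 3.35% on R1 arrays, with R1 replicate 2 between the others. The *Fbln5* signals were not told apart from background, so their evenness cannot be set against the spread of *Lox*.

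**Figure D3:**
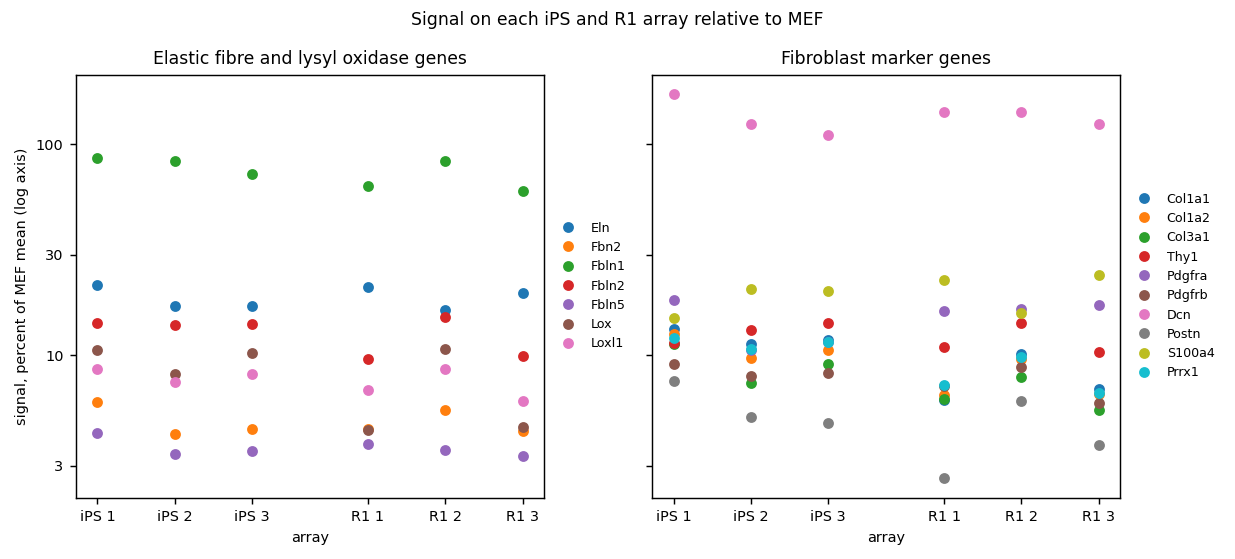
Signal of the 7 members (left) and of 10 fibroblast marker genes (right) on each iPS and R1 array, as a percent of the mean of the 3 MEF arrays (log axis). Lox runs at 8.12 to 10.6% on iPS arrays and at 4.41, 10.7 and 4.57% on R1 arrays, while Fbln5 keeps between 3.35 and 4.27% on all 6. The low Fbln5 signals were not told apart from background.

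The remaining genes of the pathway were read from 4 lists with 65 genes in all, chosen by function. Of 22 microfibril and elastic fibre accessory genes, 12 were called lower and 0 higher in iPS as well as in R1 cells against MEF, with median differences of -1.23 and -1.28. Of all genes, 7.57% in iPS and 7.93% in R1 cells were called lower than in MEF. *Ltbp1*, which tethers latent TGF-beta to microfibrils, fell most (-3.28 ± 0.14 in iPS, -3.53 ± 0.14 in R1 cells). *Mfap2* and *Mfap5*, the small microfibril glycoproteins, both fell, with differences of -2.45 ± 0.08 and -1.96 ± 0.09 in iPS and of -2.66 ± 0.08 and -1.92 ± 0.09 in R1 cells. *Efemp1*, fibulin-3, fell by 2.52 ± 0.23 in iPS and fell by 3.03 ± 0.23 in R1 cells. The proteoglycan genes biglycan (*Bgn*, -2.66 ± 0.16 and -2.98 ± 0.16) and versican (*Vcan*, -2.56 ± 0.06 and -2.63 ± 0.06) fell in iPS and in R1 cells.

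Of 13 genes for other lysyl oxidases, for their processing and for copper supply, 8 were called lower and 0 higher in each comparison against MEF. The share of all genes called lower was 7.57% in iPS and 7.93% in R1 cells. The lysyl oxidase gene *Loxl3* had signals of 168, 144 and 184 on iPS arrays and 126, 184 and 125 on R1 arrays, against 1075, 1261 and 1184 on MEF arrays, and fell in both (-2.72 ± 0.14 in iPS, -2.90 ± 0.14 in R1 cells). *Loxl4* differed by -1.06 ± 0.06 in iPS and -1.397 ± 0.06 in R1 cells, both calls. *Bmp1*, the protease that cuts the lysyl oxidase proenzyme, fell (-2.14 ± 0.12 in iPS, -2.55 ± 0.12 in R1 cells), as did its relative *Tll1* (-3.41 ± 0.19 in iPS, -3.78 ± 0.19 in R1 cells). Periostin (*Postn*), a matrix protein that binds Bmp1, fell by 3.98 ± 0.26 in iPS and fell by 4.46 ± 0.26 in R1 cells. The convertase gene *Furin*, whose protein trims profibrillin, had differences of -2.70 ± 0.11 in iPS and -2.79 ± 0.11 in R1 cells, both called. *Atp7a*, the copper pump that loads lysyl oxidases, differed by -0.15 ± 0.07 in iPS and -0.36 ± 0.07 in R1 cells and was not called.

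Of 15 genes for elastin receptors and elastin-degrading proteases, 6 were called lower and 0 higher in each comparison against MEF. The other 9 were not called, some of them with differences above 0. The list's median difference was -0.46 in iPS and -0.47 in R1 cells, and its highest was 0.60 in iPS and 0.56 in R1 cells. Again, 7.57% of all genes were called lower in iPS and 7.93% in R1 cells. The 6 included the integrin subunits *Itgav* (-2.83 ± 0.05 in iPS, -2.86 ± 0.05 in R1 cells) and *Itgb3* (-2.25 ± 0.12 and -2.21 ± 0.12), and the membrane protease *Mmp14* (-2.69 ± 0.07 and -2.99 ± 0.07). The gelatinase gene *Mmp2* (-1.96 ± 0.10 in iPS, -1.998 ± 0.10 in R1 cells) and the integrin subunit *Itgb5* (-1.23 ± 0.06 and -2.09 ± 0.06) fell too. Of 15 genes for signals that act on elastin and lysyl oxidase genes, 6 were called lower and 1 higher in iPS cells, and 7 lower and 2 higher in R1 cells. The share of all genes called higher was 5.08% in iPS and 5.56% in R1 cells. The ligand *Tgfb3* fell (-4.15 ± 0.17 in iPS, -4.63 ± 0.17 in R1 cells), as did the ligand *Tgfb2* (-2.31 ± 0.10 in iPS, -2.62 ± 0.10 in R1 cells), the AP-1 subunit gene *Fosl1* (-1.69 ± 0.14 in iPS, -1.80 ± 0.14 in R1 cells) and the receptor *Tgfbr2* (-1.71 ± 0.07 in iPS, -1.96 ± 0.07 in R1 cells). *Epas1*, the hypoxia factor HIF-2 alpha, rose by 1.99 ± 0.12 in iPS and 2.70 ± 0.12 in R1 cells. *Sp1* rose by 1.16 ± 0.08 in R1 cells and differed by 0.92 ± 0.08 in iPS cells (limma adjusted p = 9.15e-06), below the size needed for a call. Of these 65 genes, 0 were called in iPS against R1 cells (limma), a count near the share of all genes called, 0.461%. Of the 65, 9 had an adjusted p under 0.05 with smaller differences. At that adjusted p, whatever the difference, 0 of the 7 members and 8.52% of all genes passed.

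**Figure D4:**
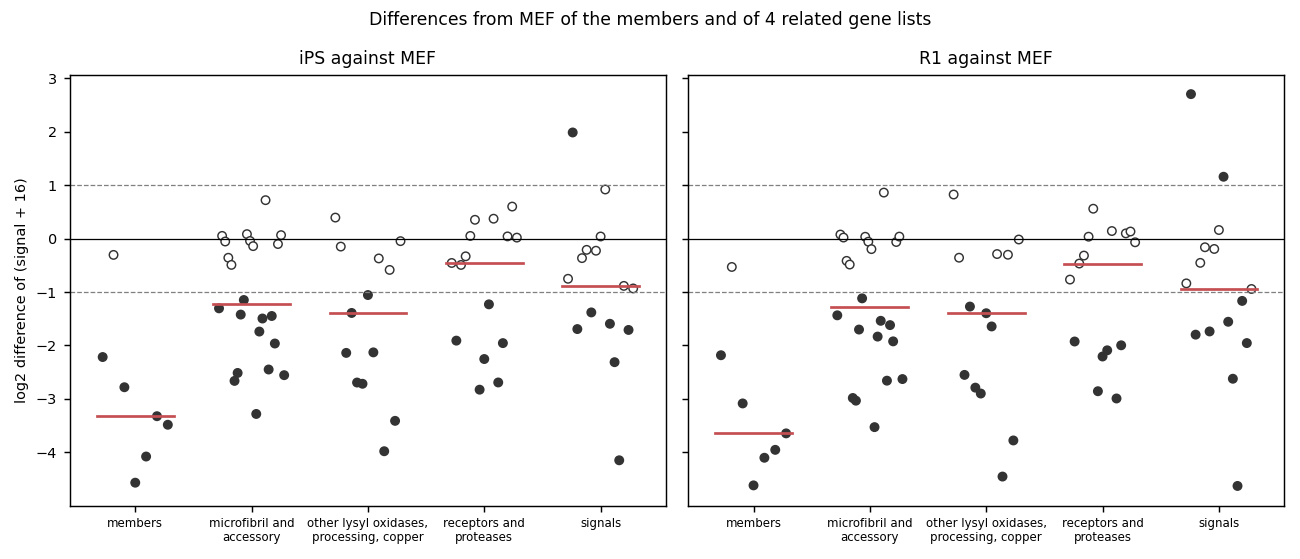
Log2 differences of (signal + 16) from MEF in iPS (left) and R1 cells (right) for the 7 members and 4 lists of related genes, with 1 point per gene, filled where called, and a red line at the list's median; dashed lines mark 1 and -1. The members' medians are -3.33 and -3.65, and those of the other lists lie between -1.397 and -0.46.

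The genes whose log2 values were most like those of *Eln* over the 9 arrays were *Tnnt1* (Pearson r = 0.998), *Zic1* (r = 0.997) and *Tslp* (r = 0.997). Those most like *Lox* were *App* (r = 0.999), *Thbs1* (r = 0.998) and *Sdc3* (r = 0.998). These correlations describe 9 arrays in which the MEF arrays stand far from the others, and each array contributes to all genes alike. *Thbs1*, thrombospondin-1, had signals of 2419, 1951 and 2034 on iPS arrays and 1323, 2469 and 1201 on R1 arrays, against 11426, 12077 and 11505 on MEF arrays. As for *Lox*, R1 replicate 2 was the highest of the 6 pluripotent arrays. *Thbs1* was picked for its likeness to *Lox* over these same arrays, so this is no separate evidence about that array. Without R1 replicate 2, r with *Lox* over the other 8 was 0.999 for *App*, *Thbs1* and *Sdc3*, where the MEF arrays again stand far from the others.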

How the data were processed

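The deposited table holds an intensity on a linear scale for each of 35557 probe sets on 9 arrays. Per the submitters' processing notes, GCOS 1.4 was used in a role not stated. How background was corrected and probes were summarized and normalized is not given in the sources used, and no further normalization was applied. A platform annotation gave 21789 probe sets 1 symbol and 1621 several; 12147 were not listed. Per gene, the probe set with the highest mean log2(signal + 16) was used. Group means were fitted over all 9 arrays with limma 3.58.1 under R 4.3.3 and tested with eBayes. The fit was tested on simulated data. Members and lists were chosen with earlier results of these data known. Named were all members, the up to 4 called genes per list, comparison and direction with the largest differences, 8 further genes (*Mfap2*, *Mfap5*, *Ltbp1*, *Efemp1*, *Loxl3*, *Loxl4*, *Bmp1*, *Atp7a*), cell type markers, and the 3 genes most like *Eln* and *Lox*. Normalization, pseudocount, filters, thresholds, weights, the replicate block and leaving out each array were varied.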

Additional observations from a re-analysis of the deposited data

How the results depend on the processing

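With 3 arrays per group and no detection calls, low signals were not told apart from background. The 6 called members stayed called lower than MEF, in iPS and in R1 cells, under all 21 alternatives (252 differences between -4.79 and -1.80, highest adjusted p 0.000659). Leaving out each array gave 6 members called in iPS against MEF and 6 in R1 against MEF, and 0 to 1 in iPS against R1, the 1 being *Lox* without R1 replicate 2. All genes called then numbered 2474 to 2593, 2675 to 2735 and 79 to 106. Without a minimum difference, all genes called were 9571 in iPS against MEF, 9748 in R1 against MEF and 1698 in iPS against R1, and *Fbln1* was called in R1 against MEF. Testing against a difference of 1 gave 1642 in iPS against MEF and 10 in iPS against R1, where a pseudocount of 64 gave 45. For iPS against R1, 9 signs of uncalled members turned: *Fbn2* (-0.0327) and *Fbln5* (-0.00349) with array weights, and 7 when 1 array was left out. These ranges were -0.105 to 0.108 for *Fbn2* (below 0 without iPS replicate 1, R1 replicate 1 or R1 replicate 3), -0.0396 to 0.106 for *Fbln5* (below 0 without iPS replicate 1) and -0.131 to 0.0287 for *Eln* (above 0 without iPS replicate 2, iPS replicate 3 or R1 replicate 1). The causes were not tested.

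Same-numbered arrays deviated together with r of -0.08 to 0.24, over 0.1 in 4 of 9 pairs, and 4 of 9 arrays correlated best with their own number, so the numbers were not taken as pairs. The pairs over 0.1 were replicate 1 in each comparison (0.23, 0.21 and 0.24) and replicate 2 in R1 against MEF (0.20). Of differing numbers, iPS replicate 3 deviated with MEF replicate 2 (0.20) and R1 replicate 2 (0.19), and iPS replicate 2 with R1 replicate 3 (0.12). Whether arrays of different groups shared a batch was not tested. With the replicate block, 6, 6 and 0 members were called, and 2523, 2689 and 92 genes. Leaving out R1 replicate 2 for *Acta2* (1.54), *Tagln* (1.502) and the genes most like *Lox* was chosen after seeing the data.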

Other observations

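*Ltbp4*, whose product helps fibulin-5 join elastic fibres, ran against the other latent TGF-beta binding genes. It had signals of 428, 465 and 484 on iPS arrays and 498, 478 and 549 on R1 arrays, against 246, 340.1 and 241 on MEF arrays. Its log2 difference was 0.72 ± 0.12 in iPS (limma adjusted p = 0.000557) and 0.86 ± 0.12 in R1 cells (limma adjusted p = 0.000155), below the size needed for a call, while *Ltbp1*, *Ltbp2* and *Ltbp3* were called lower in both. *Ltbp4* was chosen after its values were seen.

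The 9 related genes that passed the adjusted p in iPS against R1 cells, chosen after their values were seen, made up 13.8% of 65, where 8.52% of all genes did so. Higher in iPS than in R1 cells were *Itgb5*, an integrin subunit (0.86 ± 0.06, limma adjusted p = 6.05e-05), *Loxl4* (0.34 ± 0.06), *Smad3* (0.36 ± 0.09), *Ctsa* (0.31 ± 0.06) and *Mmp14* (0.30 ± 0.07). *Itgb5* had signals of 584, 576 and 600.5 on iPS arrays, against 304, 347 and 298 on R1 arrays, without overlap. Lower in iPS cells were *Epas1* (-0.72 ± 0.12, limma adjusted p = 0.0067), *Pcolce* (-0.49 ± 0.10) and the copper handling genes *Atox1* (-0.43 ± 0.10) and *Slc31a1* (-0.28 ± 0.06). The copper importer *Slc31a1* had a signal of 402 on each R1 array, against 309, 359.5 and 315 on iPS arrays.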
